A study of Mus musculus with 6 samples.

Results

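Cadherins are calcium-dependent adhesion receptors of the cell surface, and the non-clustered protocadherins are their relatives encoded outside the protocadherin gene clusters. The genes described here were chosen by symbol, as rows of the count table named Cdh or Pcdh followed by a number, with Pcdh11x included and the clustered Pcdha, Pcdhb and Pcdhg genes left out. This gave 34 genes of 51499 loci, 22 cadherins and 12 protocadherins, each at a locus with no other gene name. The RNA-Seq libraries came from WT mouse embryonic fibroblasts (MEFs), in 2 groups of 3 independent cultures, transfected with scrambled (Scr) siRNA or with Yme1l siRNA and collected after 72 h. Both groups are of the same WT genotype and differ by the siRNA. According to the methods, WT MEFs are clones that keep loxP-flanked Yme1l alleles and carry SV40 large T antigen for immortalization, while 3T3 immortalization is named in the labels. Whether the siRNA was a pool is not given in the sources used here. The paper lists its siRNAs in a part of its supplement that was not among these sources. The Scr libraries held 45205207, 37260605 and 41929579 counts and the Yme1l siRNA libraries 43630145, 42161756 and 41342446. Levels are given as CPM, which are counts relative to library sizes scaled with the TMM method, and errors of levels are SD over 3 cultures.

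Classical cadherins of type I and type II bind cadherins on neighbouring cells, and their cytoplasmic tails hold beta-catenin or plakoglobin and p120-catenin, which connect them through alpha-catenin to actin. Fibroblasts are known for N-cadherin (Cdh2) and cadherin-11 (Cdh11). The non-clustered protocadherins of the delta-1 and delta-2 subgroups lack the catenin-binding tail, and several delta-2 members bind the WAVE complex, which drives actin branching.

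The siRNA target was measured first. Yme1l1, which encodes the mitochondrial protease YME1L, was covered by 7380, 6180 and 7199 counts in Scr and by 1403, 1019 and 1898 counts in Yme1l siRNA libraries. Its log2 fold change was -2.36 (edgeR adjusted p = 3.87e-05, standard error 0.20), and all Yme1l siRNA libraries lay below all Scr libraries.

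The labelled cell type was compared with marker genes. Of 9 fibroblast markers, 8 were tested, and their summed level was 40600, 37100 and 33500 CPM in Scr libraries and 22400, 21700 and 18000 CPM in Yme1l siRNA libraries. Col1a1, the most abundant, was at 12700 CPM in Scr and 8500 CPM in Yme1l siRNA cultures on average. Thy1, a surface marker of many fibroblasts, had at most 1 count in a library. In edgeR's test 7 of the 8 fibroblast markers were lower and 0 higher (29.6% and 28.4% of all tested loci), and at an unadjusted p under 0.05 the count of higher markers was also 0, as it was with DESeq2 and limma-voom. Vim was the marker not called, with a log2 fold change of -0.19. In bulk RNA, fewer cells of a type and less RNA per cell cannot be told apart. The summed level of 9 epithelial markers was 0.0693, 0.111 and 0.142 CPM in Scr and 0.789, 1.04 and 0.807 CPM in Yme1l siRNA libraries, with Krt5 and Esrp1 at 0 in all libraries. Krt8, an epithelial keratin, had 1 count in each Scr library and 24, 31 and 23 after Yme1l siRNA. The 8 endothelial markers summed to 8.75, 7.54 and 6.56 CPM in Scr and 11.4, 11.3 and 9.80 CPM in Yme1l siRNA libraries, with Emcn and Cldn5 at 0. Tek led on average, at 3.39 CPM in Scr, where Erg was at 3.25 CPM. In Scr replicate 1 Erg was above Tek (4.64 against 3.28 CPM). Erg was not called, with a log2 fold change of -0.04. Kdr had 3, 9 and 7 against 43, 43 and 38 counts and passed the filter through the Yme1l siRNA libraries alone. Of the other 4 tested markers 2 were higher (Tek and Vwf), and 1 was with limma-voom and without Scr replicate 1, Scr replicate 2, Scr replicate 3, Yme1l siRNA replicate 1 or Yme1l siRNA replicate 2. The 6 neural and glial markers found summed to 48.4, 44.5 and 47.9 CPM in Scr and 60.2, 53.4 and 53.9 CPM in Yme1l siRNA libraries, led by Map2, with Snap25 and Sox10 at 0 and 1 of 3 tested markers (Map2) higher, a call absent on leaving out Scr replicate 2 or Yme1l siRNA replicate 1 (0 higher in each). The 7 skeletal muscle markers summed to 3.37, 3.80 and 3.67 CPM in Scr and 3.63, 3.61 and 2.54 CPM in Yme1l siRNA libraries, led by Des, with Myod1, Myog and Myf5 at 0 and the 1 tested marker not called. The 6 haematopoietic markers summed to 180, 171 and 163 CPM in Scr and 255, 242 and 249 CPM in Yme1l siRNA libraries, led by Csf1r, with Adgre1 and Cd3e at 0 and 1 of 3 tested markers (Csf1r) higher. The other tested markers, Cd68 and Lyz2, had log2 fold changes of -0.13 and -0.34 and were not called. The part of these marker changes in the cadherin results was not tested.

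Of the 34 genes, 16 passed the filter on low counts, 9 cadherins and 7 protocadherins. The comparison of Yme1l siRNA with Scr cultures asks which of them changed when Yme1l was depleted. At an adjusted p under 0.05 from edgeR, 10 of the 16 were called (62.5%), where 58.0% of all 14499 tested loci were called. Pcdh17, Cdh24, Pcdh19, Cdh17, Cdh2 and Pcdh9 rose, and Cdh19, Cdh23, Cdh13 and Pcdh18 fell. The 6 higher genes stand beside 28.4% of all tested loci called higher, and the 4 lower genes beside 29.6% called lower. The count of lower genes was 2 on leaving out Scr replicate 1, Scr replicate 2 or Yme1l siRNA replicate 3. It was 6 with DESeq2 and 7 with a replicate block, where 4195 and 4460 of the 14499 tested loci were lower. The count of higher genes was 6 in each. Scr and Yme1l siRNA levels were fully apart at 12 of the 16 genes, where 65.4% of all tested loci had groups that did not overlap and chance gives 10%. In edgeR's test without a block, the share of these genes that changed was thus close to that of all loci. Their median log2 fold change was -0.17, against 0.01 over all tested loci, and for the same 16 genes it was -0.10 without Yme1l siRNA replicate 3. Without Scr replicate 1, where 17 of the 34 genes passed the filter, the median of the 17 was 0.00 and that of the 16 was -0.16, and without Scr replicate 2 the medians were -0.02 and -0.15. The median size of change was 0.56 on the log2 scale, against 0.42 over all tested loci.

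**Figure D1:**
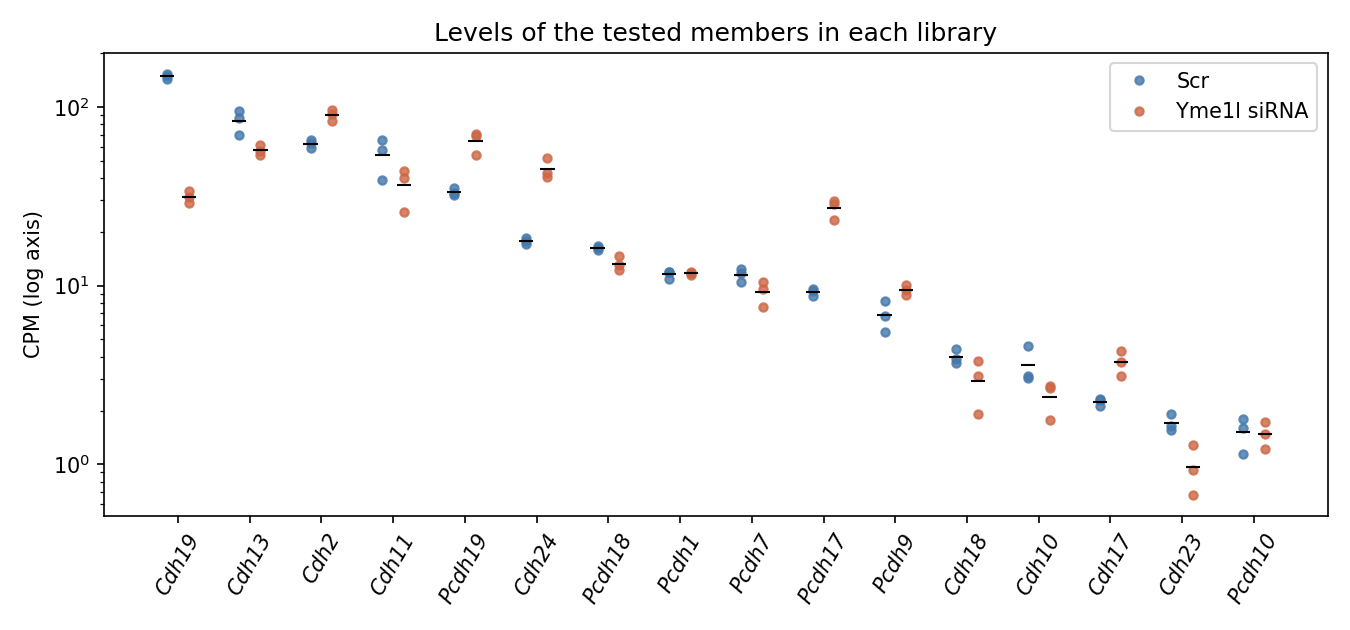
Each point is the level of a gene in 1 library, in CPM on a log axis, with Scr in blue, Yme1l siRNA in orange and black bars at the group means of 3 cultures. Cdh19 stands at 143 to 153 CPM in Scr and 29.0 to 33.9 CPM in Yme1l siRNA libraries, whereas Pcdh1 and Pcdh10 overlap between the groups.

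Cdh19 showed the largest change among the 16 genes. This type II cadherin is known from Schwann cell precursors and other derivatives of the neural crest. It is listed as XLOC_002564 and spans chr1:110888326-110977584 on the minus strand of GRCm38. Its level was 143, 153 and 149 CPM in the Scr libraries and 31.5, 29.0 and 33.9 CPM in the Yme1l siRNA libraries. All Scr libraries lay above all Yme1l siRNA libraries, with a spread of 5.14 CPM in Scr and 2.46 CPM after Yme1l siRNA. The log2 fold change was -2.24 (edgeR adjusted p = 3.26e-06, standard error 0.08), a 4.71-fold lower level. Of the 14499 tested loci, 112 had a lower log2 fold change. Sox10, a glial marker, was at 0 in all libraries. Gfap, another of the neural and glial markers, had 9, 11 and 8 counts in Scr and 9, 16 and 12 in Yme1l siRNA libraries and was not called. The cell type behind the Cdh19 level was not tested.

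Cdh24, another type II cadherin that binds catenins, moved in the opposite direction. It is listed as XLOC_015521, at chr14:54631231-54641364 on the minus strand. Its level was 17.8, 17.2 and 18.4 CPM in Scr and 42.7, 52.0 and 40.6 CPM in Yme1l siRNA libraries. The lowest Yme1l siRNA library was thus above the highest Scr library. The log2 fold change was 1.34 (edgeR adjusted p = 2.32e-05, standard error 0.10). Acin1, a separate locus upstream of Cdh24 on the same strand, had a log2 fold change of 0.14 and was not called (adjusted p = 0.218 from edgeR). An effect of this neighbour on the Cdh24 counts was not tested.

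Pcdh17, a delta-2 protocadherin that recruits the WAVE complex at cell contacts, had the largest rise of the 16 genes. It is listed as XLOC_014693, at chr14:84443563-84539002 on the plus strand. Its level was 9.52, 9.39 and 8.72 CPM in Scr and 29.8, 28.5 and 23.4 CPM in Yme1l siRNA libraries, and the groups did not overlap. The log2 fold change was 1.56 (edgeR adjusted p = 1.63e-05, standard error 0.11), a 2.96-fold higher level. Pcdh19, the delta-2 protocadherin whose loss causes an epilepsy linked to the X chromosome and which binds N-cadherin, was at 35.3, 33.0 and 32.2 CPM in Scr and 70.9, 53.6 and 68.6 CPM in Yme1l siRNA libraries. It is listed as XLOC_049632, at chrX:133582860-133688987 on the minus strand. Yme1l siRNA replicate 2 was the lowest of its group and was still above all Scr libraries. The log2 fold change of Pcdh19 was 0.94 (edgeR adjusted p = 1.50e-04, standard error 0.11). Exons of Pcdh19 share 57 bases with Gm26851 on the opposite strand, and the use of strand in counting is not given in the sources used here.

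Promoter windows of RefSeq (GRCm38.p6) were matched by symbol to 21 of the 34 genes and to 10 of the 16 tested genes. The 250 bases before the start are shown for Pcdh17, Cdh24 and Pcdh19, since these are the 3 largest rises among the 16 genes. They lie at chr14:84443313-84443562 on the plus strand, chr14:54641365-54641614 on the minus strand and chrX:133688994-133689243 on the minus strand, and 0 annotated exons overlap them. Capitals mark each GGGCGG (GC box) or CCAAT on either strand, read 5′ to 3′ on the strand of the gene.
Pcdh17: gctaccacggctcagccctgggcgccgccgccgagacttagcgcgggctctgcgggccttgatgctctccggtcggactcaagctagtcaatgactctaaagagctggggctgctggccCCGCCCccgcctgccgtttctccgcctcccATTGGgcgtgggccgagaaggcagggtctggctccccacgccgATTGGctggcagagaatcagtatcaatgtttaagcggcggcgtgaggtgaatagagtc
Cdh24: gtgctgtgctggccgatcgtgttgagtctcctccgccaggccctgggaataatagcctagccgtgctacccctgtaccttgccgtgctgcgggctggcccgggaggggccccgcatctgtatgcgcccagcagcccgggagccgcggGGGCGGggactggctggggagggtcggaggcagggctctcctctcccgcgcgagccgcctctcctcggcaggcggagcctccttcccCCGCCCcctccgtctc
Pcdh19: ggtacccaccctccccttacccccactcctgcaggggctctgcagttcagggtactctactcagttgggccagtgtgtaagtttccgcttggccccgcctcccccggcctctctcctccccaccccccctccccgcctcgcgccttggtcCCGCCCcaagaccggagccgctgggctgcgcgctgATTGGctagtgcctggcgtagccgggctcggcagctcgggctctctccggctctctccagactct
GGGCGG occurred on either strand in 32.7% of all 32851 windows of this length and in those of 5 of the 10 tested genes, Cdh24, Pcdh17, Pcdh19, Pcdh18 and Pcdh10. CCAAT occurred in 33.8% of all windows and in those of 6 of the 10, Pcdh17, Pcdh19, Pcdh18, Pcdh9, Cdh18 and Pcdh10. CACCTG, the E-box bound by SNAI2 and ZEB1, occurred in 17.2% of all windows and in 0 of the 10. Pcdh18, which fell, and Pcdh10, which was not called, held both GGGCGG and CCAAT. These windows were richer in G and C (median 63.6% in the tested genes, 52.4% in all windows), which the shares do not take into account. A match describes the sequence and is not evidence of binding.

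N-cadherin (Cdh2), the main type I cadherin of fibroblasts, was at 65.4, 62.6 and 58.8 CPM in Scr and 91.2, 95.7 and 83.1 CPM in Yme1l siRNA libraries. The groups did not overlap, and the log2 fold change was 0.53 (edgeR adjusted p = 5.44e-04, standard error 0.08). It was the 1 type I cadherin tested. Among the 5 tested type II cadherins, Cdh24 rose, Cdh19 fell, and Cdh11, Cdh10 and Cdh18 were not called. Cdh11, the cadherin of osteoblasts and other mesenchymal cells, was at 65.4, 57.6 and 39.2 CPM in Scr and 44.1, 40.1 and 25.7 CPM in Yme1l siRNA libraries. The library numbered 3 was the lowest of each group, and the groups overlapped. Its log2 fold change was -0.56 (95% interval -1.08 to -0.05, adjusted p = 0.0604 from edgeR). It passed the threshold without Scr replicate 3 (-0.75, adjusted p = 0.0177 from edgeR), without Yme1l siRNA replicate 1 (-0.71, adjusted p = 0.0463), with a replicate block (-0.57, adjusted p = 2.55e-04), with all loci of at least 1 count (-0.57, adjusted p = 0.0111) and, in an alternative chosen after seeing the data, without both libraries numbered 3 (-0.55, adjusted p = 5.19e-04). DESeq2 also called it lower (adjusted p = 0.0111). Its log2 fold change was smaller without Yme1l siRNA replicate 3 (-0.36) or Scr replicate 1 (-0.41). Over the alternatives, its adjusted p ranged from 2.55e-04 to 0.188. Cdh10 and Cdh18, known mainly from neurons, had log2 fold changes of -0.58 (95% interval -1.13 to -0.03) and -0.44 (95% interval -0.99 to 0.11). Levels of Cdh10 ran from 3.03 to 4.57 CPM in Scr and from 1.76 to 2.74 CPM in Yme1l siRNA libraries. Cdh10 was called lower by DESeq2 (adjusted p = 0.0444), with a replicate block (adjusted p = 0.0348 from edgeR) and with all loci of at least 1 count (adjusted p = 0.0494 from edgeR), and its adjusted p ranged from 0.0348 to 0.242 over the alternatives. The value of Cdh10 was -0.37 without Scr replicate 2, and that of Cdh18 was -0.22 without Yme1l siRNA replicate 3 and -0.67 without Yme1l siRNA replicate 1.

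Outside the classical types, T-cadherin (Cdh13), which is held in the membrane by a lipid anchor and has no cytoplasmic tail, was at 95.4, 86.7 and 69.8 CPM in Scr and 56.5, 53.7 and 61.3 CPM in Yme1l siRNA libraries. The groups did not overlap, and its log2 fold change was -0.55 (edgeR adjusted p = 0.00326, standard error 0.11). LI-cadherin (Cdh17), known from intestine and liver, rose from 2.24 ± 0.113 to 3.73 ± 0.587 CPM (SD over 3 cultures), and its log2 fold change was 0.74 (adjusted p = 0.00700 from edgeR). Cdh23, a component of the tip links of hair cells, was at 1.64, 1.55 and 1.92 CPM in Scr and 0.676, 1.29 and 0.925 CPM in Yme1l siRNA libraries. Its log2 fold change was -0.82 (edgeR adjusted p = 0.0270, standard error 0.27). The call of Cdh23 was absent without Scr replicate 1 (-0.86), Scr replicate 2 (-0.89), Scr replicate 3 (-0.73), Yme1l siRNA replicate 1 (-0.62) or Yme1l siRNA replicate 3 (-0.80), and its adjusted p ranged from 0.0103 to 0.0953 over the alternatives. This call was also absent without both libraries numbered 3, the alternative chosen after seeing the data.

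Among the delta-1 protocadherins, Pcdh9 rose, and Pcdh1 and Pcdh7 were not called. Pcdh9 was at 6.79, 5.49 and 8.20 CPM in Scr and 10.1, 9.41 and 8.83 CPM in Yme1l siRNA libraries, with a log2 fold change of 0.47 (edgeR adjusted p = 0.0303, standard error 0.16). This call was absent without Scr replicate 1 (0.46), Scr replicate 2 (0.33), Yme1l siRNA replicate 1 (0.42) or Yme1l siRNA replicate 2 (0.48), with adjusted p-values between 0.00396 and 0.102 over the alternatives. Pcdh1, an adhesion protein of airway epithelium, was at 10.9 to 11.9 CPM in Scr and 11.4 to 12.0 CPM in Yme1l siRNA libraries. Its log2 fold change was 0.02, with a 95% interval from -0.19 to 0.23, and -0.02 without Scr replicate 2. Pcdh7 had a log2 fold change of -0.32 (95% interval -0.64 to -0.01, adjusted p = 0.0745 from edgeR) and passed the threshold without Yme1l siRNA replicate 2 (-0.42, adjusted p = 0.0381) and with a replicate block (-0.33, adjusted p = 0.0283), where the range over the alternatives was 0.0283 to 0.190, and its value was -0.20 without Yme1l siRNA replicate 3. Exons of Pcdh7 share 2235 bases with 4932441J04Rik on the opposite strand, which had 1 to 6 counts in a library.

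Of the 4 tested delta-2 protocadherins, Pcdh17 and Pcdh19 rose and Pcdh18 fell. Pcdh18 was at 15.9, 16.2 and 16.6 CPM in Scr and 14.6, 12.2 and 13.0 CPM in Yme1l siRNA libraries, with a log2 fold change of -0.29 (edgeR adjusted p = 0.0273, standard error 0.10). Its call was absent without Scr replicate 1 (-0.31), Scr replicate 2 (-0.30), Scr replicate 3 (-0.28), Yme1l siRNA replicate 2 (-0.23) or Yme1l siRNA replicate 3 (-0.28), with adjusted p-values between 0.0257 (limma-voom) and 0.0799 over the alternatives. The call of Pcdh18 was also absent without both libraries numbered 3. Pcdh10, which binds the WAVE complex as Pcdh17 does, was at 1.14 to 1.80 CPM in Scr and 1.21 to 1.73 CPM in Yme1l siRNA libraries. Its log2 fold change was -0.04, with a 95% interval from -0.60 to 0.52, so a moderate change in either direction is not excluded, and the value turned to 0.10 on leaving out Scr replicate 2 and to 0.08 on leaving out Yme1l siRNA replicate 3. In the deposited pooled FPKM values (1 authors' value per group, with no SD), Pcdh10 was at 0.268 in Scr and 0.497 in Yme1l siRNA cultures, where its summed counts were 182 and 191. Pcdh7 was at 2.31 and 2.59 in these values, opposite in direction to its log2 fold change. Exons of Pcdh10 share 154 bases with 1700027H10Rik on the opposite strand.

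**Figure D2:**
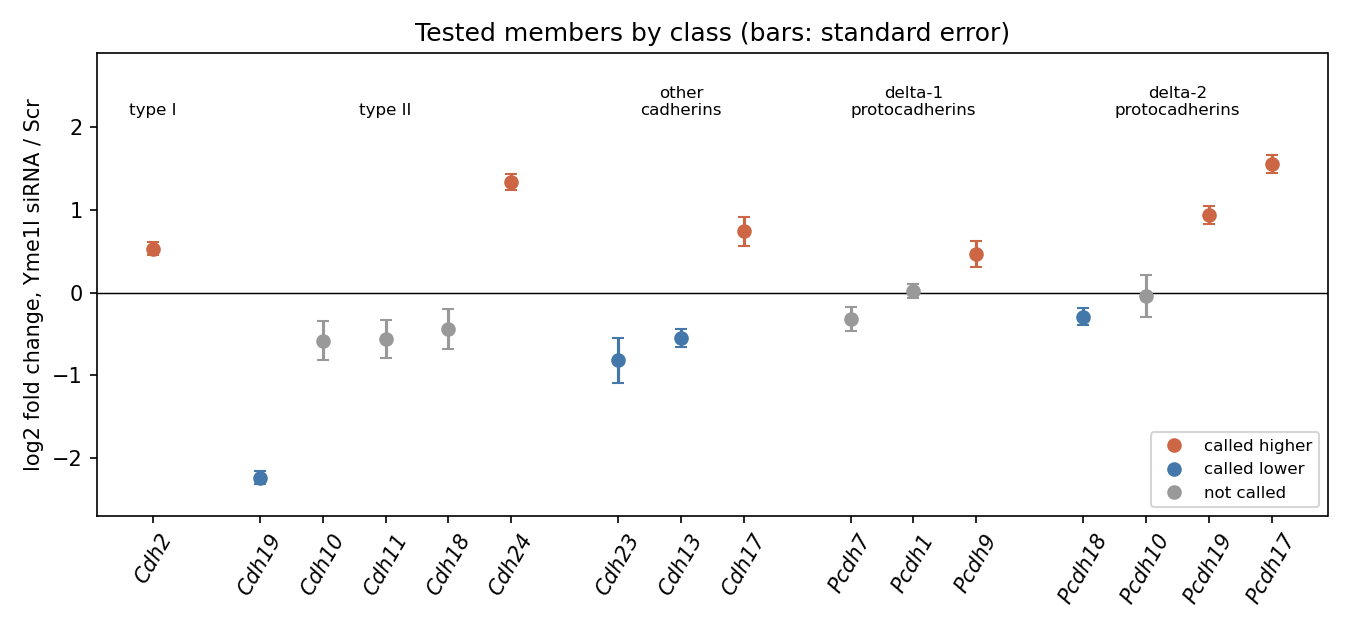
Points are log2 fold changes of Yme1l siRNA against Scr for the 16 tested genes, grouped by class, with bars for the standard error and colours for the edgeR call. Type II cadherins and delta-2 protocadherins each hold changes in both directions, from -2.24 (Cdh19) to 1.34 (Cdh24) and from -0.29 (Pcdh18) to 1.56 (Pcdh17).

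Of the other 18 genes, 13 had at least 1 count and 5 had 0 counts in all libraries. The latter were Cdh4, Cdh8, Cdh16, Cdh20 and Pcdh15, and a count of 0 allows up to 0.0676 to 0.0831 CPM in a library, for counting error only. E-cadherin (Cdh1), the main cadherin of epithelia, had 2, 5 and 2 counts in Scr and 9, 13 and 8 counts in Yme1l siRNA libraries. It was the 1 untested gene whose groups did not overlap in CPM (exact permutation test, two-sided, p = 0.1, the smallest that 3 against 3 cultures allow). Among all 9326 loci with a count that did not pass the filter, 13.1% had groups that did not overlap. VE-cadherin (Cdh5), the cadherin of endothelial junctions, had 10, 6 and 4 counts in Scr and 23, 10 and 25 counts in Yme1l siRNA libraries, and P-cadherin (Cdh3) had 3, 2 and 2 against 7, 3 and 7 counts. When all loci with at least 1 count were tested, Cdh5 was called higher (log2 fold change 1.42, edgeR adjusted p = 0.0314) and Cdh1 was not (edgeR adjusted p = 0.0624). The summed counts of the 3 libraries in Scr and Yme1l siRNA cultures were 12 and 8 for Pcdh12, 11 and 8 for Pcdh11x, 10 and 6 for Pcdh20, 6 and 10 for Cdh12, and 4 and 1 for Cdh9. They were 2 and 2 for Cdh6, 1 and 2 for Cdh26, and 0 and 1 for each of Cdh7, Cdh22 and Pcdh8. Cdh15 was not analysed here.

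Levels of different genes were compared per kilobase of annotated exons. In Scr cultures Cdh19 was highest at 34.7 ± 1.20 CPM per kb, followed by Cdh2 at 7.72 ± 0.413, Cdh13 at 7.48 ± 1.16, Cdh11 at 6.07 ± 1.51 and Cdh24 at 5.10 ± 0.181 CPM per kb (SD, n = 3 each). Cdh19 lay above the other genes in every Scr library, while each neighbouring pair from Cdh2 to Cdh24 overlapped in its range. After Yme1l siRNA, Cdh24 was at 12.9 ± 1.74 CPM per kb and Cdh2 at 11.2 ± 0.793, which overlapped, followed by Cdh19 at 7.36 ± 0.575 and Pcdh19 at 6.15 ± 0.898 CPM per kb (SD, n = 3 each). Pcdh19 overlapped with Cdh13 at 5.09 ± 0.342 CPM per kb.

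The share that Cdh19 held in the summed level per kilobase of all 34 genes was 44.5%, 47.8% and 49.5% in Scr libraries and 12.5%, 11.6% and 14.7% in Yme1l siRNA libraries. Cdh24 held 6.78%, 6.57% and 7.50% in Scr and 20.8%, 25.5% and 21.5% in Yme1l siRNA libraries, and Cdh2 held 10.5% ± 0.257 and 19.5% ± 0.689 (SD, n = 3 each). The summed level was 75.1, 74.9 and 70.4 CPM per kb in Scr and 58.8, 58.3 and 54.0 CPM per kb in Yme1l siRNA libraries. Without Cdh19 it was 41.7, 39.1 and 35.5 CPM per kb in Scr and 51.5, 51.6 and 46.1 CPM per kb after Yme1l siRNA, so the sum was lower with Cdh19 and higher without it. These levels depend on the length used. With the longest annotated transcript in place of all exons, Cdh19 held 38.4% ± 2.83 in Scr and 10.4% ± 1.25 after Yme1l siRNA (SD, n = 3 each), Cdh13 was second in Scr at 18.4 CPM per kb, and the highest gene after Yme1l siRNA was Cdh2 at 18.6 CPM per kb, above Cdh24 at 12.9.

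**Figure D3:**
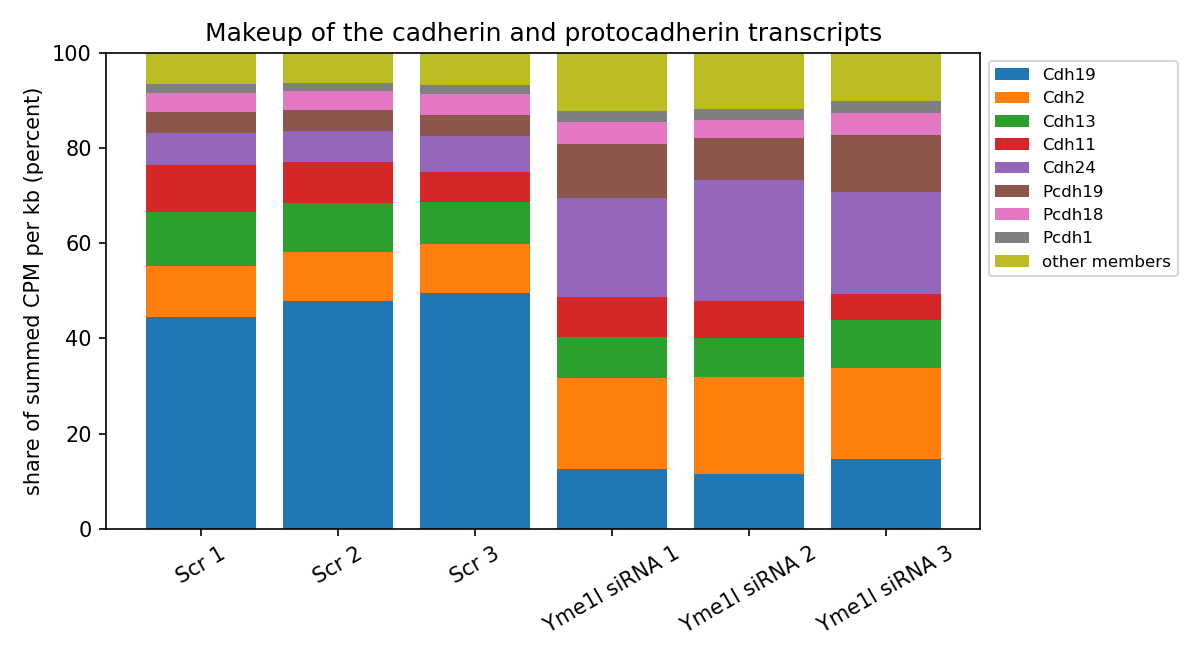
Bars give, for each library, the share of the summed CPM per kilobase of exons held by each of the 8 genes highest in Scr and by all other genes of the 34. The Cdh19 share was 44.5% to 49.5% in Scr and 11.6% to 14.7% in Yme1l siRNA libraries, and the Cdh24 share 6.57% to 7.50% and 20.8% to 25.5%.

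The filter let through 322 loci with under 10 counts in all libraries of 1 group, which had to differ. They are left out of the counts and medians of the lists, a choice made after the data were seen, and none was among the 16 tested cadherins and protocadherins. Of the other 14177 tested loci, 27.5% were called higher and 29.8% lower. Of 13 cytoplasmic partners of cadherins, 10 were tested and kept, with 3 higher, 4 lower and a median log2 fold change of -0.21. Beta-catenin (Ctnnb1), which binds the tails of classical cadherins, fell from 1110 ± 15.7 to 730 ± 16.2 CPM (SD over 3 cultures), and its log2 fold change was -0.60 (adjusted p = 1.45e-04 from edgeR). Plakoglobin (Jup), its close relative, was at 29.2, 28.0 and 30.4 CPM in Scr and 38.5, 51.4 and 31.2 CPM in Yme1l siRNA libraries, with a log2 fold change of 0.47 (adjusted p = 0.0328 from edgeR). The locus of p120-catenin (Ctnnd1), which also carries the names Gm28635 and Tmx2, had a log2 fold change of -0.26 (adjusted p = 0.0158 from edgeR). Alpha-catenin (Ctnna1) had a log2 fold change of -0.07 and was not called (adjusted p = 0.337 from edgeR). Ctnnd2, left out, had 8, 5 and 5 counts in Scr and 24, 11 and 13 in Yme1l siRNA libraries, and afadin (Afdn), which links nectins to actin, rose with a log2 fold change of 0.72. The 3 higher partners were 1 without Scr replicate 1, Scr replicate 2 or Yme1l siRNA replicate 1.

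Of 27 other genes for proteins with cadherin repeats, 10 were tested and kept. Of these 5 were higher and 1 lower, where 27.5% of all kept loci were higher and 29.8% lower. The median log2 fold change of the 10 was 0.47. The median depended on the genes included, at 0.17 over the 8 with a mean of at least 50 counts, 0.76 over the 9 loci with a single gene name and 0.77 over all 12 tested. Fat2, an atypical cadherin, had 19, 17 and 18 counts in Scr and 59, 86 and 43 in Yme1l siRNA libraries (log2 fold change 1.69), and Celsr1 and Ret had log2 fold changes of 1.27 and 0.88. Dchs1, a ligand of the atypical cadherin FAT4 in planar polarity, had 7, 2 and 5 counts in Scr and 49, 47 and 34 in Yme1l siRNA libraries, and Dchs2 had 3, 1 and 9 against 39, 21 and 23. Both passed the filter through the Yme1l siRNA libraries alone, so no fold is given. Fat4, named after its values were seen as the 1 lower gene, had a log2 fold change of -0.68. The count of higher genes was 3 without Scr replicate 3 or Yme1l siRNA replicate 1, and that of lower genes was 2 without Yme1l siRNA replicate 3. Desmosomal cadherins, the Dsg and Dsc genes, had at most 5 counts in a library.

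The clustered protocadherins, which share exons and are near-identical in part, so that the division of reads among them is uncertain, occupied 22 loci. Of these 13 were tested and kept, without Pcdhb11 (23, 20 and 24 counts in Scr and 5, 2 and 9 after Yme1l siRNA). Among the 13 kept, 13 were lower and 0 higher, where 29.8% of all kept loci were lower and 27.5% higher. Their median log2 fold change was -1.34. At an unadjusted p under 0.05 the count of higher loci was also 0, as it was with DESeq2 and limma-voom. The locus that joins 38 names of Pcdha, Pcdhg and neighbouring genes had a log2 fold change of -0.68, and the 3 largest falls were at Pcdhb9 (-1.97), Pcdhb17 (-1.61) and Pcdhb16 (-1.44).

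Of 8 transcription factors known to act on cadherin genes, all were tested, with 6 lower, 0 higher and a median log2 fold change of -0.32, where 29.8% of all kept loci were lower and 27.5% higher. At an unadjusted p under 0.05 the count of higher factors was also 0, as it was with DESeq2 and limma-voom. Zeb1, a repressor of E-cadherin, fell from 192 to 92.0 CPM on average (log2 fold change -1.06, adjusted p = 5.12e-05 from edgeR). Snai2, a repressor of the same gene, had a log2 fold change of -0.92, and Tcf4 of -0.81. The number of lower factors was 3 on leaving out Scr replicate 1, Scr replicate 2 or Yme1l siRNA replicate 1, and with upper-quartile scaling. Of 4 nectins and Pvr, 4 were tested, and Nectin1, an adhesion protein that works beside cadherins, rose (log2 fold change 0.31), with 2 higher without Yme1l siRNA replicate 3. All 4 together had a median of 0.17, which was 0.27 without Yme1l siRNA replicate 3 and 0.08 without Yme1l siRNA replicate 2.

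The counts of the next 2 lists stand beside 27.5% of all kept loci called higher and 29.8% called lower. Of 13 genes for proteases and a ligase that process cadherins, 12 were tested, with 4 higher, 6 lower and a median log2 fold change of -0.29. Adam17, a sheddase of the cell surface, had a log2 fold change of -1.21, and Psen2 and Ncstn, subunits of gamma-secretase, of -1.20 and -0.64. The 4 higher genes were 2 without Scr replicate 1 or Yme1l siRNA replicate 2, and 1 without Scr replicate 2, Scr replicate 3 or Yme1l siRNA replicate 1. Of 9 WAVE complex genes, 8 were tested, with 2 higher, 4 lower and a median of -0.21, which was -0.11 without Yme1l siRNA replicate 2. Cyfip2, a subunit of the complex, rose by 1.21 on the log2 scale, and Wasf2 and Wasf1, which activate Arp2/3, had log2 fold changes of -0.67 and -0.61. The 2 higher genes were 1 without Scr replicate 1, Scr replicate 2 or Yme1l siRNA replicate 1.

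**Figure D4:**
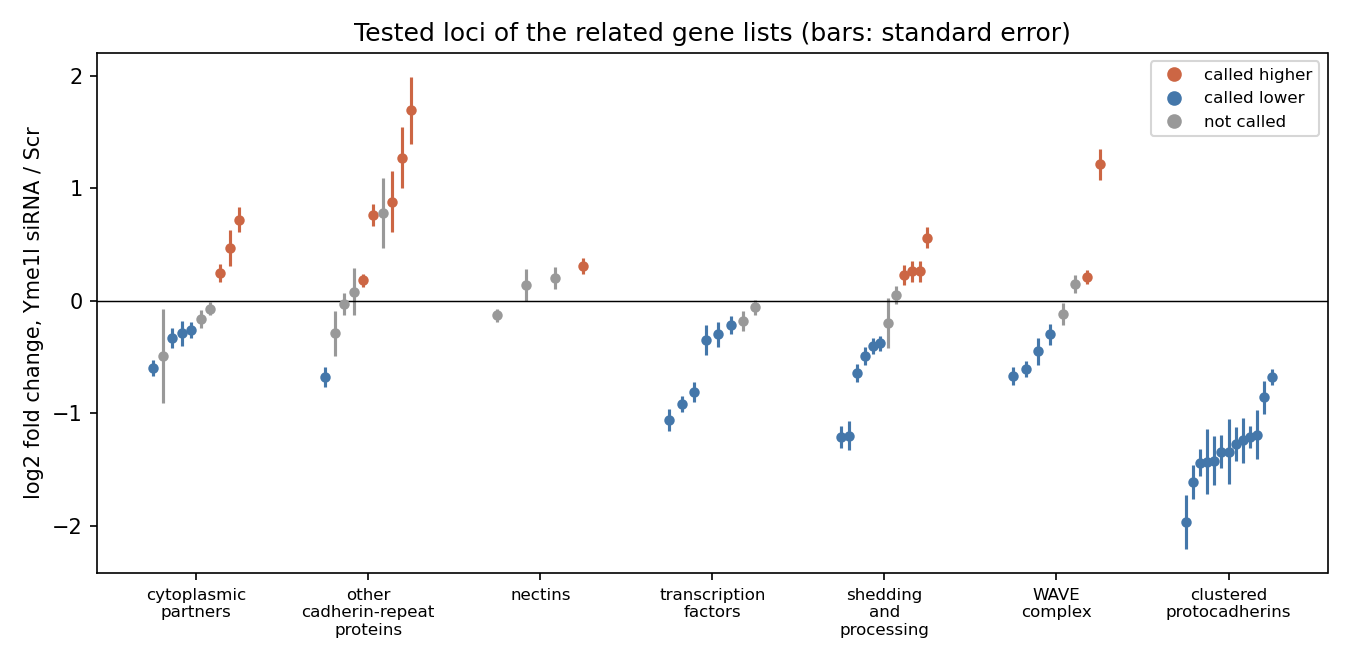
Points are log2 fold changes of Yme1l siRNA against Scr for the tested loci of each list, without those that passed the filter through 1 group alone, in order of their value, with bars for the standard error and colours for the edgeR call. Cadherin-repeat genes lie between -0.68 (Fat4) and 1.69 (Fat2), and the 13 clustered protocadherin loci between -1.97 and -0.68.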

How the data were processed

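The authors mapped reads to GRCm38, with HISAT2 2.0.4, StringTie 1.3.3 and Cuffdiff 2.2.1 in the submitters' processing notes. The counts deposited by the authors are raw reads per locus, and the counting program is not given in the sources used here. The authors also deposited pooled FPKM values per group, given here for Pcdh10 and Pcdh7 only, and their own fold changes and p-values, which were not used. TMM factors were computed with edgeR 4.0.16 (R 4.3.3) followed by its quasi-likelihood test without covariates after filterByExpr (minimum 10 counts, 15 in total), with Benjamini-Hochberg adjustment over 14499 loci and a threshold of 0.05. DESeq2 1.42.0, limma-voom (limma 3.58.1), other scalings and filters, a replicate block and leaving out libraries were alternatives. Exon lengths came from GENCODE M21. All tested genes were named, and of each list the called loci with the 3 largest changes among those kept, with Ctnnb1, Ctnna1, Ctnnd1 and Jup. Members and lists were chosen with earlier results of these data known. Of the planned cell type markers, 2 are not reported here and were left out of the marker sums. Libraries of the same group were compared in pairs, and each pair differed beyond sampling noise (chi-square per degree of freedom 9.70 to 69.9). The value for libraries 1 and 2 was 9.70 in Scr and 26.1 in Yme1l siRNA. Pairs with library 3 lay higher, at 69.9 and 55.2 in Scr and 45.3 and 66.4 in Yme1l siRNA.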

Additional observations from a re-analysis of the deposited data

How the results depend on the processing

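Counts of called loci stayed within 1.5 times over the alternatives, from 2949 to 4272 higher and from 3225 to 4478 lower. Whether a replicate number marks libraries made together is not given in the labels or methods, so pairing is not known. Deviations of same-numbered libraries from their group means had correlations of 0.0409, 0.116 and 0.192 over all tested loci. With a replicate block 7 genes of the 34 were lower in place of 4, and 6 were higher. Cdh10, Cdh11 and Pcdh7 were the added calls. Counts of the lists are without the loci that passed the filter through 1 group. With those loci included, the 1 tested epithelial marker and 3 endothelial markers were higher. At an adjusted p under 0.01, the counts were 2 lower genes of the 34, 1 higher and 1 lower cytoplasmic partner, 3 higher cadherin-repeat genes, 3 lower transcription factors, 1 higher processing gene, 1 higher WAVE gene, and among markers 0 higher endothelial and 0 higher neural. With a mean of at least 50 counts, they were 3 lower transcription factors and 1 higher endothelial marker of 2 tested, and the median of the cytoplasmic partners was -0.12. With all loci of at least 1 count, 2 nectins, 2 processing genes, 1 WAVE gene and 1 skeletal muscle marker were higher, with more loci tested. So were 2 epithelial markers, with loci that passed the filter through 1 group included. In that setting the median of the 29 tested cadherins and protocadherins was 0.01 and that of the 16 was -0.18. Limma-voom left 1 endothelial marker higher. Upper-quartile factors left 3 transcription factors lower. Leaving out each library in turn gave 2 to 4 lower genes of the 34, a median from -0.25 to -0.10 over the same 16 genes and from -0.21 to 0.00 over the 16 or 17 that passed the filter, 1 to 3 higher among cytoplasmic partners, 3 to 6 higher among cadherin-repeat genes, 1 to 2 lower among cadherin-repeat genes, 1 to 2 higher among nectins, 3 to 6 lower among transcription factors, 1 to 3 higher among processing genes, 1 to 2 higher among WAVE genes, 1 to 2 higher among endothelial markers and 0 to 1 higher among neural and glial markers. Pcdh1 changed sign without Scr replicate 2 (-0.02), and Pcdh10 without Scr replicate 2 (0.10) or Yme1l siRNA replicate 3 (0.08), with ranges of -0.02 to 0.04 and -0.21 to 0.10 on leaving out 1 library, and up to 0.05 for Pcdh1 with a mean of at least 50 counts, and neither was called. Of the single-gene results, 207 kept direction and side of the threshold, 19 lost the call (Cdh23, Pcdh18, Pcdh9) and 11 gained it (Cdh10, Cdh11, Pcdh7). Where fewer loci or libraries do not account for a change, the cause was not tested.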
